A study of Homo sapiens with 12 samples.

Results

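The genes described here make up the machinery that licenses, starts and carries out DNA replication and supplies it with nucleotides and chromatin proteins. They were taken by symbol from a list of 55 genes, all 55 of which were found among the 28265 genes of the deposited expression table, and 54 of which had 173 of the 46178 regions of the deposited m6A table. They fall into 5 role groups: licensing with 16 genes, fork helicase and firing with 11, polymerases with clamp, clamp loader, single-strand binding and maturation factors with 20, nucleotide supply with 5, and chromatin assembly with 3. The last group also covers methylation inheritance, through UHRF1. The cells were HepG2, an established human hepatocellular carcinoma line, treated with toosendanin, a triterpenoid from Melia toosendan known for liver toxicity, or labelled as control. Each condition had 3 libraries of RNA pulled down with an antibody against N6-methyladenosine (m6A), called IP, and 3 libraries of the RNA before the pull-down, called input, 12 in all. The labels used here state neither the dose and time of toosendanin nor what the control received. The study's stated aim was the toxicity of the compound in hepatoma cells.

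Replication is prepared in G1, when the origin recognition complex marks origins and CDC6 and CDT1 load the ring-shaped MCM2-7 helicase onto DNA. In S phase the kinase CDC7-DBF4, CDC45 and GINS turn the loaded ring into the active helicase, polymerases copy both strands behind it, ribonucleotide reductase and thymidylate enzymes supply the building blocks, and CAF-1 places histones on the new DNA. Many of these genes are known to be transcribed at the G1-S boundary under control of E2F factors, and their transcripts are abundant in dividing cells and scarce in the resting hepatocytes of the adult liver.

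The values are the authors' own comparison and sums, not values per library. The expression table gives each gene a log2 fold change, a standard error (written ± below) and an adjusted p, and a gene was called at an adjusted p under 0.05. A value such as 50% of control is the fold change on a linear scale, and its 95% interval comes from the standard error. The m6A table holds 4 summed counts for each region, in all 34131862 control input, 24253006 toosendanin input, 42316089 control IP and 29094328 toosendanin IP counts. CPM below are such counts scaled to the total of their column. Marker genes of hepatocytes such as ALB, AFP and APOA1 were present, all 8 of 8 with mean normalized counts of 5546 to 411979 in the authors' deposited table, 1 called lower and 3 higher. Of markers of other cells, PTPRC, CD3E, KDR, COL1A1, COL1A2 and DCN were listed at 0. Of the 5 blood and immune markers CD68, at a mean of 1426, was called higher (1.41 on the log2 scale) and LYZ, at a mean of 49191 and so above some hepatocyte markers, was called lower (-0.37) in the authors' deposited table. Of the 4 endothelial markers none exceeded a mean of 13.1 or was called, and of the 4 fibroblast markers, at most at 36.1, PDGFRB was called lower in the authors' deposited table. Their part in the results was not tested.

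Genes of all 5 role groups fell after toosendanin, and the depth of the fall differed widely between genes, from RRM2, left at 12.2% of control, to ORC4, at 96.9% of control and not called. By the authors' DESeq2 test, 50 of the 55 genes were lower at an adjusted p under 0.05 and 0 were higher, at any p, since all 55 changes were below 0. Of all 16552 genes with an adjusted p, 15.7% were called lower, 15.7% higher and 31.4% in either direction. All 55 genes had an adjusted p, so none was lost to the filter on low values. The 5 genes that were not called were ORC2, ORC4, ORC5, POLE2 and CHAF1B. The median log2 fold change of the 55 was -0.95, or 51.9% of control, against 0.00 over all genes with an adjusted p. A fall of at least 2-fold was listed for 26 of the 55, where 3.46% of all genes fell that far. The replication genes are counted well, with mean normalized counts of 66.2 for POLE2 to 5605 for MCM3 and a median of 668.7. In these bulk libraries, fewer cells of a type (such as cells in S phase) and less RNA per cell cannot be told apart.

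**Figure D1:**
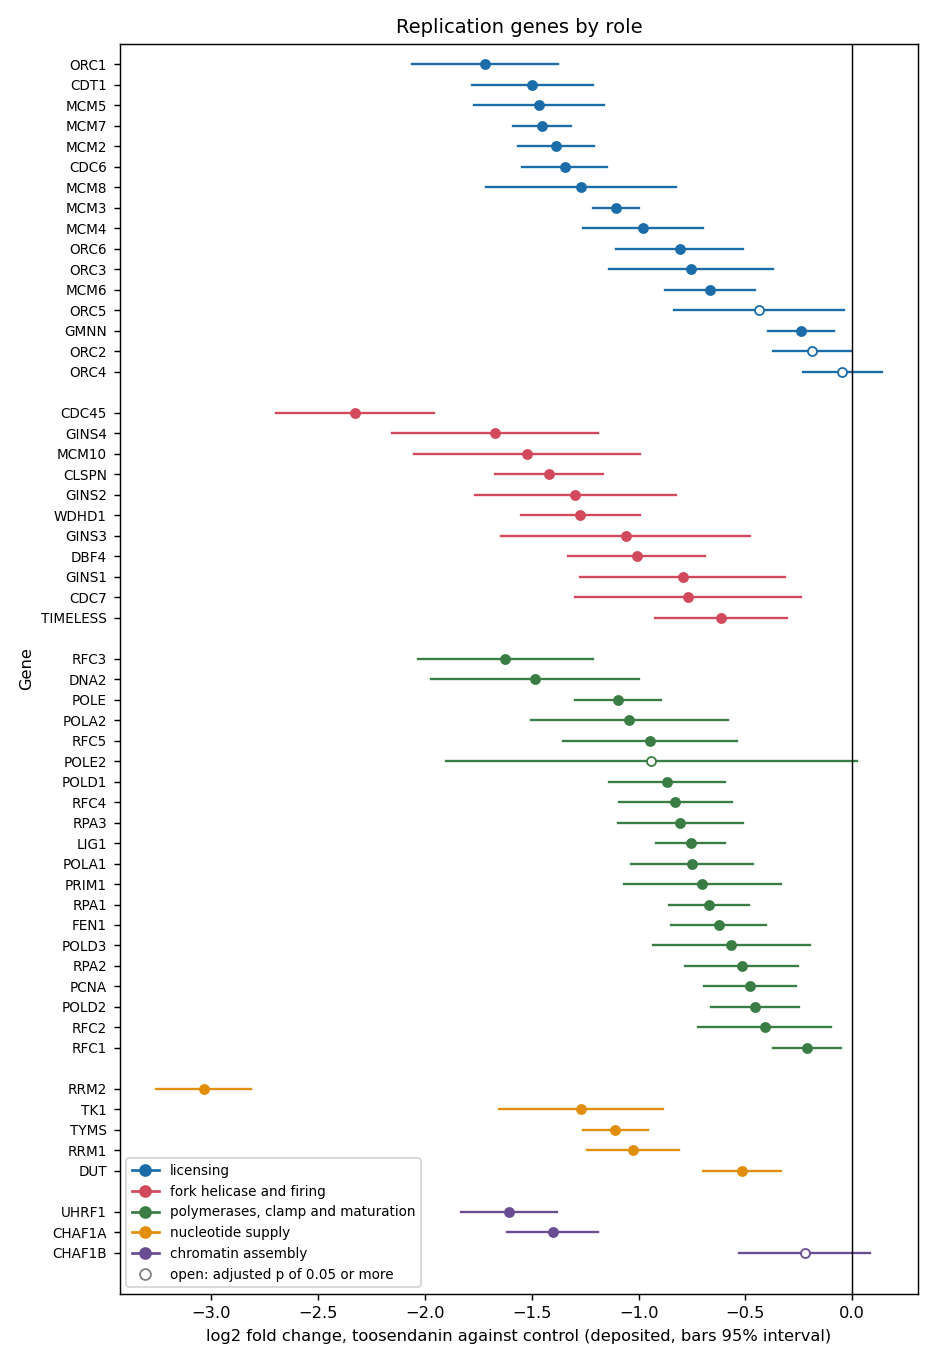
Deposited log2 fold change (x axis) of the 55 genes (y axis), grouped and coloured by role, with bars for the 95% interval from the deposited standard error. Filled points passed an adjusted p of 0.05. All 55 points lie left of 0, and RRM2 at -3.04 and CDC45 at -2.33 lie farthest out.

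The role groups were lowered to different depths. In the authors' deposited table the median log2 fold change was -1.40 for chromatin assembly (2 of 3 genes lower), -1.27 for fork helicase and firing (11 of 11 lower), -1.11 for nucleotide supply (5 of 5 lower), -1.04 for licensing (13 of 16 lower) and -0.75 for the polymerase group (19 of 20 lower). The first of these medians rests on only 3 genes, CHAF1A, CHAF1B and UHRF1, and the CAF-1 pair without UHRF1 had a median of -0.81. A fall of at least 2-fold was reached by 8 of 11 fork helicase and firing genes and by 8 of 16 licensing genes, but by 4 of 20 in the polymerase group. These medians describe the genes, which share libraries, and no test was made between groups. The spread inside each group was larger than the distance between the medians: licensing genes ran from -1.72 to -0.05 and the polymerase group from -1.62 to -0.21 in the authors' deposited table.

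**Figure D2:**
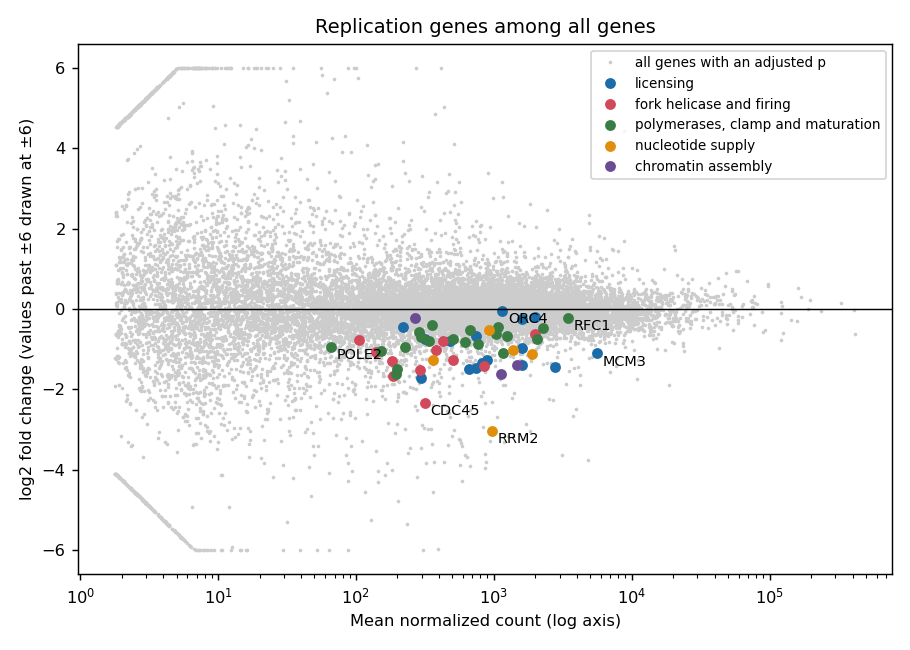
Deposited log2 fold change (y axis) against mean normalized count (x axis, log scale) for all 16552 genes with an adjusted p in grey and the 55 replication genes coloured by role. The replication genes sit in the middle and upper range of counts and below the line at 0, with RRM2 and CDC45 lowest.

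Within licensing, the loaders and the helicase fell together while the origin recognition complex split. ORC1, the subunit known to be made and destroyed with the cell cycle, stood at -1.72 ± 0.17 in the authors' deposited table, or 30.4% of control (95% interval 24.0 to 38.5%). Its input counts, summed over libraries, were 381 in control and 84 after toosendanin, or 11.2 and 3.46 CPM. ORC2 had 2441 and 1446 input counts, 71.5 and 59.6 CPM, and was not called, at -0.19 ± 0.09 with an adjusted p of 0.113 in the authors' deposited DESeq2 table. The difference between ORC1 and ORC2 was -1.53 on the log2 scale (95% interval -1.92 to -1.14, taking the 2 errors as independent). ORC4 was not called either, at -0.05 ± 0.09 with an adjusted p of 0.787 in the authors' deposited DESeq2 table, and its interval ran from 85.1 to 110.2% of control. ORC5 stood at -0.44 ± 0.20 with an adjusted p of 0.0867 in the authors' deposited DESeq2 table. The intervals of ORC5 and ORC2, not adjusted for the number of genes, ran from 56.1 to 97.2% and from 77.3 to 99.6% of control. Both lay below the control level. ORC6 at -0.81 ± 0.15 and ORC3 at -0.75 ± 0.20 fell, in the authors' deposited table. Of the 6 origin recognition genes 3 were thus called lower, with a median of -0.60.

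The bases before the start of ORC1 and ORC2 are shown because these subunits of one complex moved apart. The 200 bases before the start that the RefSeq table lists first are printed from GRCh38.p14, 5′ to 3′, in capitals where they hold CCAAT (or ATTGG, the same letters on the other strand), which NF-Y is known to bind, or the E2F letters TTTCCCGC, TTTCGCGC, TTTGCCGC or TTTGGCGC on either strand. Positions are counted from the start, negative before it, and give the first base of a match. ORC1 is shown at chr1:52404424-52404623 on the minus strand and ORC2 at chr2:200963661-200963860 on the minus strand. Each holds 1 CCAAT box, at -23 in ORC1 and -67 in ORC2, and neither holds an E2F match in these letters.
ORC1: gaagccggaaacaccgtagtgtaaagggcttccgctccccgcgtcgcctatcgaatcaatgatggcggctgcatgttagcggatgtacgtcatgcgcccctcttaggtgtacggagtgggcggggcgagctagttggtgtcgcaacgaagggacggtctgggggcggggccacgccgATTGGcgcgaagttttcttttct
ORC2: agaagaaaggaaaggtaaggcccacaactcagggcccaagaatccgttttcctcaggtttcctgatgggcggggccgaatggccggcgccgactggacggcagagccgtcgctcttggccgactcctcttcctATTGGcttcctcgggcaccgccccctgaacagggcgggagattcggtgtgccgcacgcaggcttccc

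CDT1 and CDC6, which bring the helicase to the origin recognition complex, both fell. CDT1 stood at -1.50 ± 0.14 and CDC6 at -1.35 ± 0.10 in the authors' deposited table, or 35.4% and 39.3% of control. Their difference of 0.15 had an interval from -0.20 to 0.50, which does not show that they are equal, and it was -0.13 in the summed inputs. GMNN, or geminin, which binds CDT1 and stops a second loading, was close to its control level, at -0.24 ± 0.08 or 84.7% of control in the authors' deposited table, a small fall that passed with an adjusted p of 0.00916 by the authors' DESeq2 test. GMNN had 2303 control and 1485 toosendanin input counts, or 67.5 and 61.2 CPM, while CDT1 had 410 and 125, or 12.01 and 5.15 CPM. CDT1 was lowered more than its inhibitor by 1.26 on the log2 scale (difference -1.26, interval -1.58 to -0.94). The promoter of CDT1, at chr16:88803589-88803788 on the plus strand, holds an E2F match at -35, and that of GMNN, at chr6:24774737-24774936 on the plus strand, holds neither an E2F nor a CCAAT match in the 200 bases shown in the same way.
CDT1: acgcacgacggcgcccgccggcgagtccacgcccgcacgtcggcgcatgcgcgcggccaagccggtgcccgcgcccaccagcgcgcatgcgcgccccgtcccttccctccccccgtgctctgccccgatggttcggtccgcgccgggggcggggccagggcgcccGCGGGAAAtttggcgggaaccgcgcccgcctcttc
GMNN: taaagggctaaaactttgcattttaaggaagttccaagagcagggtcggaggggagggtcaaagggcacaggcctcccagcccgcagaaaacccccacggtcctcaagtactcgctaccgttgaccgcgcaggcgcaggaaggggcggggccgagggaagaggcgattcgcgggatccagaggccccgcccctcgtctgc

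The 6 subunits of the MCM2-7 ring all fell, with a median of -1.25. MCM5 at -1.46 ± 0.16, MCM7 at -1.45 ± 0.07, MCM2 at -1.39 ± 0.09 and MCM3 at -1.11 ± 0.06 fell by more than 2-fold in the authors' deposited table. MCM4 followed at -0.98 ± 0.14 and MCM6 was the least lowered of the ring at -0.67 ± 0.11, or 63.0% of control, in the authors' deposited table. MCM3, the most deeply counted of the replication genes, had 8996 control and 2989 toosendanin input counts, or 263.6 and 123.2 CPM. MCM7 had 4226 and 1132, or 123.8 and 46.7 CPM. MCM8, a relative of the ring that is known to act with MCM9 in recombination, stood at -1.27 ± 0.23 in the authors' deposited table. Its partner MCM9 was not called there, at -0.10 ± 0.15 with an adjusted p of 0.698 in the authors' deposited DESeq2 table.

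MCM6 and MCM7, picked after their values were seen as the least and among the most lowered of the ring, both hold more than 1 E2F match near their start. In MCM6, at chr2:135876444-135876643 on the minus strand, TTTGGCGC on the shown strand begins at -152 and again at -90, and each overlaps TTTCGCGC on the other strand, beginning at -148 and -86. In MCM7, at chr7:100101398-100101597 on the minus strand, matches begin at -187 and -9, with ATTGG at -95 and -51 between them. MCM6 holds ATTGG as well, at -100 and -58. The 200 bases before each start follow, with the same capitals.
MCM6: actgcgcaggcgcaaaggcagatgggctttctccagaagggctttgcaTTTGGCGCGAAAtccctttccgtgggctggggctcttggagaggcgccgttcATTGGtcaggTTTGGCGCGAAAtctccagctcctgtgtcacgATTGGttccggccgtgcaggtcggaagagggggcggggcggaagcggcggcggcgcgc
MCM7: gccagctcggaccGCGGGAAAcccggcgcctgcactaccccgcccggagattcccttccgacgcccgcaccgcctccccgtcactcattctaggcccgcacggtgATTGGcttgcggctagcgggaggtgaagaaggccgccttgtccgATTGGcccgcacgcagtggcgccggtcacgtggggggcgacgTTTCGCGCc

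Helicase activation genes fell without exception. CDC45, which joins MCM2-7 and GINS in the active helicase, was lowered the most of the 55 genes after RRM2. It stood at -2.33 ± 0.19 in the authors' deposited table, or 19.9% of control (15.4 to 25.7%). Its input counts were 492 in control and 62 after toosendanin, or 14.4 and 2.56 CPM, and its IP values were 13.2 and 2.78 CPM. The GINS subunits stood at -1.67 ± 0.25 for GINS4, -1.30 ± 0.24 for GINS2, -1.06 ± 0.30 for GINS3 and -0.79 ± 0.24 for GINS1 in the authors' deposited table. The 4 GINS genes thus lay within 0.88 of each other on the log2 scale, at standard errors of 0.24 to 0.30. MCM10, needed to set the helicase in motion, stood at -1.52 ± 0.27 in the authors' deposited table, and its difference from MCM8 was -0.25 (interval -0.94 to 0.44).

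The kinase that fires origins was lowered in both subunits. CDC7, the catalytic subunit, stood at -0.77 ± 0.27 and DBF4, its activator, at -1.01 ± 0.16 in the authors' deposited table, a difference of 0.24 (interval -0.38 to 0.86). CDC7 had only 42 control and 16 toosendanin input counts, in a single m6A region. Among genes that hold the fork together, CLSPN, the checkpoint mediator claspin, stood at -1.42 ± 0.13, WDHD1, which ties polymerase alpha to the helicase, at -1.27 ± 0.14, and TIMELESS, the fork protection factor, at -0.61 ± 0.16 in the authors' deposited table. TIMELESS was the least lowered of the 11 genes of this role, at 65.3% of control.

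Polymerases and their accessory factors fell less deeply as a group. Of their fixed pairs, POLD1 with POLD2 and RFC1 with RFC4 differed, with intervals that left out 0. The intervals of POLE with POLE2, POLA1 with POLA2 and RPA1 with RPA2 held 0. POLE, the catalytic subunit of the leading-strand polymerase epsilon, stood at -1.10 ± 0.10 in the authors' deposited table. Its partner POLE2 was listed at -0.94 ± 0.49 with an adjusted p of 0.139 in the authors' deposited DESeq2 table. POLE2 had the lowest mean normalized count of the 55 genes, 66.2, and its interval of 26.8 to 101.5% of control spans a fall as deep as that of POLE. In the lagging-strand polymerase delta, POLD1 at -0.87 ± 0.14, POLD3 at -0.57 ± 0.19 and POLD2 at -0.45 ± 0.11 fell in the authors' deposited table, with POLD1 below POLD2 by 0.41 (difference -0.41, interval -0.75 to -0.07). In the summed inputs that difference was -0.67 ± 0.56 (counting error), which does not leave out 0, since POLD2 had 18 control and 11 toosendanin counts there. Polymerase alpha and primase, which lay down primers, fell with POLA2 at -1.04 ± 0.24, POLA1 at -0.75 ± 0.15 and PRIM1 at -0.70 ± 0.19 in the authors' deposited table. POLA1 lay above POLA2 by 0.29, with an interval from -0.25 to 0.84, but in the summed inputs the difference was -0.16 ± 0.50 (counting error).

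The clamp loader held the widest range of this role. RFC3 stood at -1.62 ± 0.21 in the authors' deposited table, or 32.4% of control, and RFC1, the large subunit, at -0.21 ± 0.08, or 86.4% of control. Input values went from 6.18 to 1.81 CPM for RFC3 and from 116.7 to 101.3 CPM for RFC1. Between them lay RFC5 at -0.95 ± 0.21, RFC4 at -0.83 ± 0.14 and RFC2 at -0.41 ± 0.16 in the authors' deposited table. RFC1 lay above RFC4 by 0.62 (interval 0.31 to 0.93). PCNA, the clamp that these proteins load, was at -0.48 ± 0.11 in the authors' deposited table, or 71.8% of control, with 2841 control and 1268 toosendanin input counts. In its inputs PCNA was lower by more, at -0.67 after centring on the median of all genes.

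The single-strand binding complex RPA and the enzymes that finish Okazaki fragments fell by moderate amounts, apart from DNA2. RPA3 stood at -0.80 ± 0.15, RPA1 at -0.67 ± 0.10 and RPA2 at -0.52 ± 0.13 in the authors' deposited table, with a difference of -0.15 between RPA1 and RPA2 (interval -0.48 to 0.17). LIG1, the ligase, stood at -0.76 ± 0.08 and FEN1, the flap nuclease, at -0.63 ± 0.11 in the authors' deposited table. DNA2, a nuclease and helicase for long flaps, was at -1.48 ± 0.25 in the authors' deposited table, where the inputs held 58 control and 14 toosendanin counts.

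Nucleotide supply showed the deepest fall of any replication gene and an unequal loss within 1 enzyme. Ribonucleotide reductase is built from a large subunit, RRM1, and a small subunit, RRM2, which is known to limit the enzyme and to be made in S phase. RRM2 had 1471 input counts in control and 136 after toosendanin, or 43.1 and 5.61 CPM, and stood at -3.04 ± 0.11 in the authors' deposited table, which is 12.2% of control (10.4 to 14.2%). RRM1 had 1385 and 501, or 40.6 and 20.7 CPM, and stood at -1.03 ± 0.11 in the authors' deposited table, 49.1% of control. RRM2 was lowered more than RRM1 by 2.01 on the log2 scale (difference -2.01, interval -2.32 to -1.70). RRM2B, the alternative small subunit used outside S phase and known as a p53 target, was not called, at 0.31 ± 0.28 with an adjusted p of 0.452 in the authors' deposited DESeq2 table. The difference between RRM2 and RRM2B was -3.35 (interval -3.94 to -2.76), and -2.69 in the summed inputs. RRM2 itself stood at -2.94 in those inputs after centring, a larger fall than this difference. RRM2B was therefore lower after toosendanin in the summed inputs, unlike its deposited fold change.

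Both thymidylate enzymes fell. TK1, which salvages thymidine, stood at -1.27 ± 0.20 and TYMS, which makes thymidylate from deoxyuridylate, at -1.11 ± 0.08 in the authors' deposited table, with a difference of 0.16 (interval -0.25 to 0.57). In the summed inputs TYMS lay above TK1 by 0.41 ± 0.15 (counting error). DUT, which removes deoxyuridine triphosphate, was lowered least of the 5, at -0.52 ± 0.09 or 69.9% of control in the authors' deposited table. ENOSF1 overlaps TYMS in the RefSeq table and was not called, at 0.25 ± 0.19 with an adjusted p of 0.376 in the authors' deposited DESeq2 table. In all, 10 of the 55 genes overlap another protein-coding gene in that table, among them ORC1 with PRPF38A at -0.38 ± 0.07, MCM7 with AP4M1 at -0.41 ± 0.21 and RFC5 with WSB2 at 0.69 ± 0.13 in the authors' deposited table. Whether counting used strand is not stated, so reads of overlapping genes may be shared. The 200 bases before the start of TYMS, at chr18:657453-657652 on the plus strand, hold 1 E2F match at -39.
TYMS: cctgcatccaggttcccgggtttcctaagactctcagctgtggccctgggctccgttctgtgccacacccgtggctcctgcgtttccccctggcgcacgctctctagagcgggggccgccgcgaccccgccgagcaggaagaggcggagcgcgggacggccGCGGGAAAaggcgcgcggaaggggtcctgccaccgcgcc

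Of the chromatin assembly genes, CHAF1A and CHAF1B encode subunits of one complex, CAF-1, and did not move alike. CHAF1A stood at -1.40 ± 0.11 in the authors' deposited table, or 37.9% of control, with 2674 control and 749 toosendanin input counts. CHAF1B was not called, at -0.22 ± 0.16 with an adjusted p of 0.307 in the authors' deposited DESeq2 table, and had 221 and 130 input counts, or 6.47 and 5.36 CPM. The difference was -1.18 (interval -1.55 to -0.80). RBBP4, the histone-binding subunit of the same complex, was not called either, at -0.04 ± 0.06 in the authors' deposited table. UHRF1, which reads half-methylated DNA behind the fork and recruits the methyltransferase DNMT1, stood at -1.61 ± 0.11 in the authors' deposited table, while DNMT1 itself fell less, to -0.50 ± 0.07 in the authors' deposited table. The promoters of the CAF-1 pair are shown for the contrast in CCAAT boxes, which was not particular to this pair. POLE holds CCAAT matches in the 200 bases before the start and POLE2 holds none. POLE was listed lower than POLE2, with an interval of the difference that held 0. RFC1, POLD2, POLA1 and CDC6 hold CCAAT matches there and were listed as less lowered than RFC4, POLD1, POLA2 and CDT1, which hold none. For POLA1 with POLA2 and CDC6 with CDT1 the interval held 0. CHAF1A, at chr19:4402440-4402639 on the plus strand, holds CCAAT matches at -188, -41 and -38 within the bases shown, the last 2 on opposite strands and overlapping, and CHAF1B, at chr21:36385192-36385391 on the plus strand, holds none.
CHAF1A: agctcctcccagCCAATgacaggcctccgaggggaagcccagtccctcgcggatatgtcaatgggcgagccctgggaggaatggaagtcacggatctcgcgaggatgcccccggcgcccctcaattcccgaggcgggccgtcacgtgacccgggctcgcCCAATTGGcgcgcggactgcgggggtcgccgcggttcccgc
CHAF1B: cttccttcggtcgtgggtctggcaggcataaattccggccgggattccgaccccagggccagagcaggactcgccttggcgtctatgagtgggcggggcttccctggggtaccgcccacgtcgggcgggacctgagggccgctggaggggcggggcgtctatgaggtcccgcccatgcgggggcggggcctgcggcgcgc

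In all, 14 pairs from one complex or role were compared, and the interval of the difference left out 0 in 7 of them. These were RRM2 with RRM1, RRM2 with RRM2B, CDT1 with GMNN, ORC1 with ORC2, CHAF1A with CHAF1B, RFC1 with RFC4 and POLD1 with POLD2. The intervals of the other 7 held 0, and the widest, for POLE and POLE2, ran from -1.14 to 0.83.

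Other genes of the replication pathway, outside the 55, were also lower in part. Of 45 such genes 24 were lower and 1 higher in the authors' deposited table, with a median of -0.39, against 15.7% of all genes lower and 15.7% higher. By adjusted p the first were the histone chaperone NASP at -1.03 ± 0.05, the ribonuclease subunit RNASEH2A at -1.43 ± 0.11, the origin firing factor TICRR at -1.94 ± 0.16 and SUPT16H, a subunit of the histone chaperone FACT, at -0.63 ± 0.06 in the authors' deposited table. The deepest falls of the 45 were those of DSCC1 at -2.74 ± 0.49, ATAD5 at -2.24 ± 0.25, MTBP at -2.09 ± 0.48 and CHTF18 at -2.07 ± 0.23 there. The single higher gene was CMPK1, a pyrimidine nucleotide kinase, at 0.32 ± 0.06 in the authors' deposited table.

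Over the promoters of these genes the E2F letters were frequent. RefSeq promoters of 300 bases, from 250 before to 50 after the start that the table lists first for a gene (not always the most upstream), were found for 48 of the 55 genes, and not for MCM4, MCM5, GINS4, POLD3, RPA2, RPA3 and DNA2. An E2F match on either strand was in 21 of the 48 (43.8%), against 5.08% of 12136 promoters of genes with an adjusted p and 3.33% of all 27305 promoters. A CCAAT box was in 27 of the 48 (56.2%), against 36.4% of the genes with an adjusted p. The letters TTTGAA or TTCGAA, known as the CHR element of mitotic genes, were in 3 of the 48, those of RRM1, DBF4 and MCM6 (6.25%), against 11.8%. Base composition was similar, with a median GC content of 65.3% in the 48 and 64.7% in the genes with an adjusted p. By role, the E2F letters were in 8 of 14 licensing promoters, 4 of 10 of fork helicase and firing, 7 of 16 of the polymerase group, 1 of 5 of nucleotide supply and 1 of 3 of chromatin assembly.

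The 21 genes with an E2F match had a median log2 fold change of -1.11, from -1.62 for RFC3 to -0.48 for PCNA, and the 27 without one had -0.77, from -3.04 for RRM2 to -0.05 for ORC4. Over all genes with an adjusted p the medians were -0.08 with and 0.00 without a match. For CCAAT, the medians were -1.03 in the 27 replication genes with a match and -0.87 in the 21 without one. Over all genes with an adjusted p they were -0.03 with and 0.01 without a CCAAT match. RRM2 and CDC45, the 2 deepest falls, had no E2F match in this window and held 3 and 4 CCAAT matches, between -123 and -44; their bases are not printed, since each start used lies downstream of another start in the table. A match is a run of letters and not a measured binding site, and no match says only that these letters are not in this window.

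The summed inputs of the m6A table gave a view of the same RNA from summed counts. Over the 54 genes with regions, input counts came to 65828 in control and 25751 after toosendanin, or 1929 and 1062 CPM. Centred on the median of all genes, 53 of the 54 were lower, with a median of -0.96 beside -0.96 for the deposited fold changes of the same genes. The exception was ORC4, at 0.04. The gap between both measures was at most 0.25 in size for 49 of the 54, and largest for PRIM1, at -1.37 in the inputs and -0.70 in the authors' deposited table, on 179 control and 49 toosendanin counts. Which libraries the authors compared is not stated, so the inputs may be the same ones and are not independent support.

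**Figure D3:**
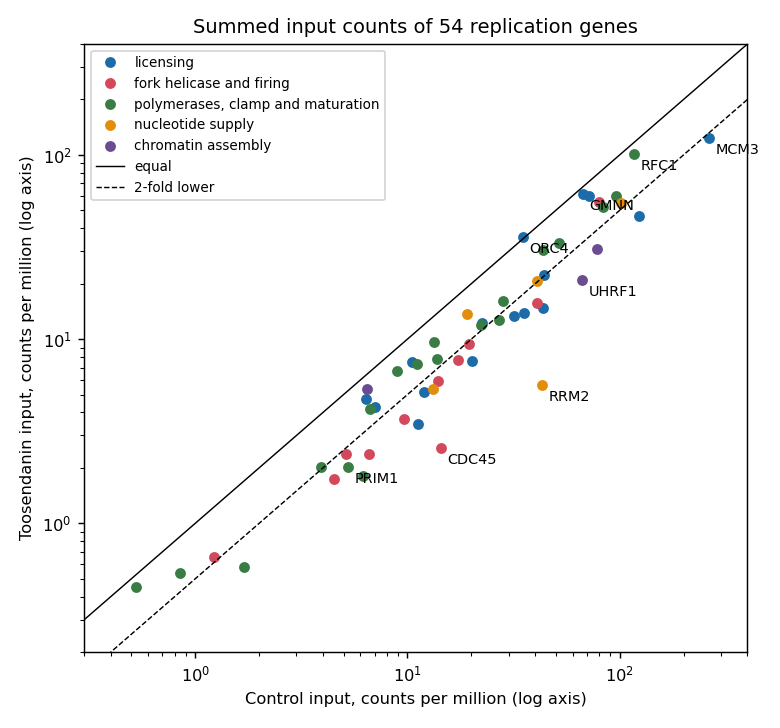
Input CPM, summed over libraries and over each gene's m6A regions, in control (x axis) and after toosendanin (y axis), both on log scales, for 54 replication genes coloured by role. The solid line marks equal values and the dashed line a 2-fold fall; ORC4 lies on the solid line, MCM3 near the dashed line, and RRM2 and CDC45 far under it.

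Pulled-down RNA of the replication genes was lower along with the input RNA. IP counts of the 54 genes came to 86650 in control and 34217 after toosendanin, or 2048 and 1176 CPM, and 53 of 54 were lower after centring, with a median of -0.84. RRM2 had 1351 IP counts in control and 141 after toosendanin in its single region, a change of -2.74 after centring, beside -2.94 in input. Taken per gene and scaled to totals, the change of IP over input had a median of 0.05 over the 54 genes, with quartiles of -0.10 and 0.15, and 0.03 over all 12383 genes with counts, with quartiles of -0.09 and 0.15. Its counting interval left out 0 in 7 of the 54 genes (12.96%), against 22.7% of all genes. These were PRIM1 at 1.1 ± 0.30, TYMS at 0.31 ± 0.07, MCM8 at 0.23 ± 0.11, GMNN at 0.13 ± 0.06, RFC1 at -0.12 ± 0.05, FEN1 at -0.29 ± 0.08 and GINS1 at -0.34 ± 0.15, where ± is the counting error.

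**Figure D4:**
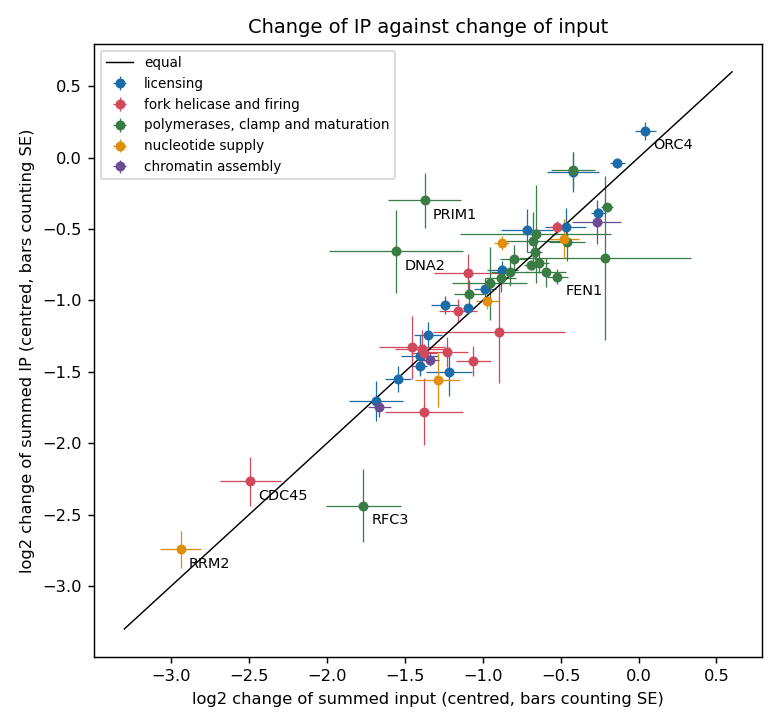
Change of IP counts (y axis) against change of input counts (x axis) per gene, log2 and each centred on the median of all genes, for 54 replication genes coloured by role, with bars for the counting standard error. Points follow the line of equal change from ORC4 at the upper right to RRM2 at the lower left; PRIM1 and DNA2 lie above it and RFC3 below.

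By region, the deposited m6A test called changes in these genes at a rate near that of all regions. Of their 173 regions 84, in 39 genes, had an FDR, and 7 passed 0.05 in the authors' deposited table, 4 lower and 3 higher. That is 8.33%, where 8.95% of all 24688 regions with an FDR were called, 6.24% lower and 2.71% higher. The p-values of that table hold the counting error of the 4 summed counts and no spread between libraries. With the error widened by the spread of the statistic over all regions (1.53), 0 of the 7 regions kept an adjusted p under 0.05, and 7 of the 84 regions with an FDR had an unadjusted p under 0.05 from that widened normal statistic. How many of all regions passed these widened limits was not counted, so these counts cannot be set against a share over all regions. The median m6A log2 fold change was -0.11 over the 173 regions and -0.06 over all regions in the authors' deposited table. Of the 32 genes with at least 3 regions, 28 had regions on both sides of 0 and 4 (CDT1, CHAF1B, GINS1 and WDHD1) had all regions below 0. The like share over all genes was not counted, and 58.3% of all regions were below 0, beside 61.8% of the 173. Scaled to totals, the WDHD1 region with 379 IP and 169 input counts in control stood above 0, at 0.03.

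Regions called lower lay in FEN1, UHRF1 and RFC1. In FEN1, 1 region with 2020 IP and 810 input counts in control and 737 and 384 after toosendanin went from an IP over input ratio of 2.49 to 1.92, with a log2 fold change of -0.44 and an FDR of 0.0017 in the authors' deposited table. The other called FEN1 region went from 1.43 to 1.03, at -0.51 with an FDR of 0.0118 in the authors' deposited table. The third FEN1 region stood at 0.50 with an FDR of 0.241 in the authors' deposited table, so the gene's regions did not share 1 direction. In UHRF1, the region with 218 IP and 189 input counts in control and 26 and 50 after toosendanin went from 1.15 to 0.52, at -1.24 with an FDR of 0.0175 in the authors' deposited table. A second UHRF1 region stood at -1.04 with an FDR of 0.0808, and the best counted one, with 1553 control IP counts, at -0.18 with 0.507 in the authors' deposited table. RFC1 had the most counts behind a call, 6693 and 3176 in control and 3622 and 1916 after toosendanin, and the smallest change, -0.17 with an FDR of 0.0196 in the authors' deposited table. Scaled to the column totals, the RFC1 region was no longer called (-0.11, adjusted p 0.180), while the other 6 regions kept an adjusted p under 0.05 by the counting error. The next regions by FDR, none of them called, were in MCM7 at -0.49 with 0.0559, in UHRF1 (the second region above) and in ORC2 at -0.18 with 0.0857 in the authors' deposited table.

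Regions called higher lay in PRIM1, TYMS and ORC4. The PRIM1 region had 119 IP and 161 input counts in control and 67 and 37 after toosendanin, and stood at 1.29 with an FDR of 0.00432 in the authors' deposited table. After centring, its input counts changed by -1.63 and its IP counts by -0.31, so both counts were lower and the input more so. The other PRIM1 region, with 36 IP and 18 input counts in control, stood at -0.20 and had no FDR. In TYMS the region with 1344 and 1645 counts in control and 714 and 671 after toosendanin stood at 0.34 with an FDR of 0.00761, while the neighbour in the list with 1082 and 1558 control counts stood at 0.04 with 0.879 in the authors' deposited table. In ORC4 the region with 732 and 750 counts in control and 593 and 466 after toosendanin stood at 0.38 with an FDR of 0.019 in the authors' deposited table. The other 3 ORC4 regions were below 0, at -0.91 without an FDR and at -0.12 and -0.15, not called, so the gene's regions did not share 1 direction. The called regions of PRIM1, TYMS and ORC4 were not enriched in the control IP, with log2 enrichments scaled to totals of -0.75, -0.60 and -0.35.

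In the control, the replication genes carried m6A signal unevenly. Of the 173 regions 78 (45.1%) had more IP than input after scaling, against 47.9% of all regions. Enrichment of at least 2-fold was found in 8 of the 173, against 4592 of all 46178 regions. The fork helicase and firing genes had a median log2 enrichment of 0.30 over 35 regions, licensing genes -0.16 over 56, the polymerase group -0.22 over 57, nucleotide supply -0.46 over 13 and chromatin assembly -0.13 over 12. CLSPN was enriched in each of its 6 regions, from 0.57 to 1.83, the highest value among the replication genes, which rests on 22 IP and 5 input counts. GINS3, MCM10 and others were also above 0 in every region. MCM5, with 3 regions from -0.93 to -0.78, and PCNA, with 4 from -1.06 to -0.46, were among several genes without an enriched region. The best counted region of each role was that of MCM3 (6512 control input counts, m6A log2 fold change 0.02), TIMELESS (1343, -0.08), RFC1 (3176, -0.17), TYMS (1645, 0.34) and CHAF1A (1708, -0.07) in the authors' deposited table, and apart from RFC1 and TYMS these were not called.

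**Figure D5:**
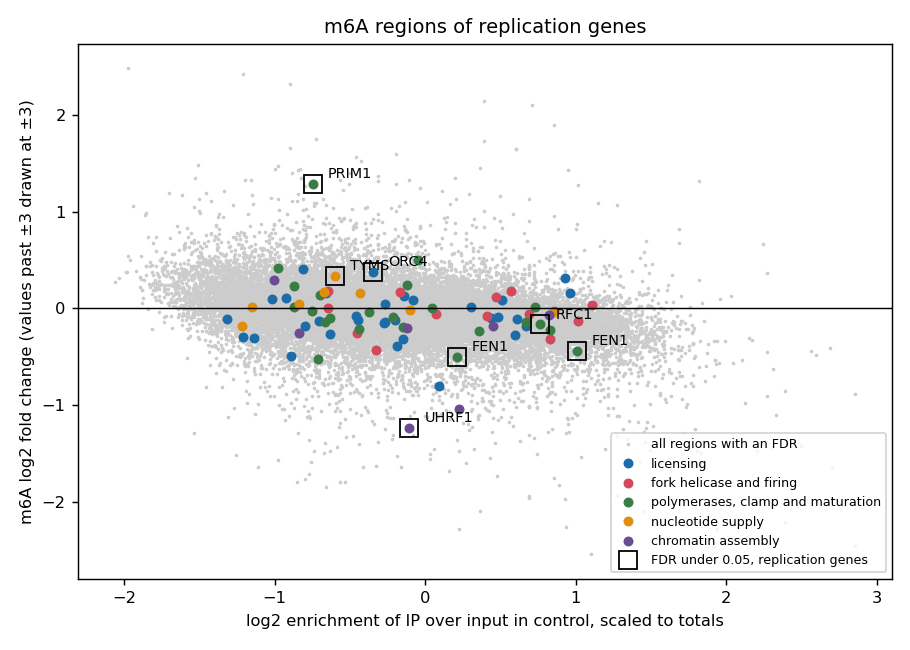
Deposited m6A log2 fold change (y axis) against log2 enrichment of IP over input in control, scaled to totals (x axis), for all regions with an FDR in grey and those of replication genes coloured by role. Squares mark the 7 called regions: PRIM1, TYMS and ORC4 lie above 0 and left of 0 enrichment, the 2 FEN1 regions and RFC1 below 0 and right of it, and UHRF1 below 0 and near 0 enrichment.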

How the data were processed

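RNA of HepG2 cells was measured in 12 libraries, 3 IP and 3 input per condition, made with a stranded mRNA kit with unique molecular identifiers, per the labels' protocols. The submitters' processing notes name the tools HISAT2, StringTie and DESeq. Build, annotation, region caller and counting settings: not given in the sources used here. The m6A table lists no coordinates, and none are printed for regions. No label says that libraries came from separate cultures, so p-values cover only their spread, and this may be technical.

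Per the file headers, the authors deposited a DESeq2 table with mean normalized counts (signal), log2 fold changes, their standard errors, a Wald score, and p-values with an adjusted p. Their m6A table holds whole-number counts summed over libraries, a log2 fold change of IP over input, p-values and an FDR, per the file headers. The counting error of the 4 counts was within 1% of the error implied by the deposited p-value in 99.5% of 42293 regions. A fit of counts per library had been planned, but nothing was refitted: no values per library were used, so spread and depth per library were not analysed here.

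Inputs and IP were summed per gene and centred on the median of all genes (shifts of -0.50 and -0.52). Intervals are 95% normal intervals, and those of counts cover counting error only. The m6A ratio and its counting error were tested on data simulated with counting error alone. Those data held no spread between libraries, so the test cannot show whether the counting error is wide enough for the real counts. Deposited fold changes and input changes had a Pearson r of 0.94 across 7947 genes with means above the median (genes are not independent), so a positive value was read as higher after toosendanin. Members and lists were chosen with earlier results of these data known. Named genes were, per role, the 4 largest and 2 smallest changes, each gene not called and each fixed pair; for m6A, called and best counted regions; other members stand beside them. Of the promoters of fixed pairs, 7 are printed, with MCM6 and MCM7 chosen after their values were seen. Alternatives were stricter thresholds, filters, scalings and inputs in place of the deposited fold change. Scripts ran under Python 3.11.15 with scipy 1.17.1, pandas 2.3.3, numpy 2.4.6 and matplotlib 3.10.9.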

Additional observations from a re-analysis of the deposited data

How the results depend on the processing

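The count of lower genes was 50 of 55 as reported, 26 with a limit of 2-fold, and 32 of the 34 genes in the upper 50% of mean normalized counts. In each, 0 were higher. Of all genes with an adjusted p, 15.7% were called lower as reported and 3.46% with the limit of 2-fold. In the upper 50%, 23.0% of all genes were lower by the deposited adjusted p, while the 32 were adjusted anew within that part. With inputs in place of the deposited fold changes, the medians of all genes and of 4 role groups moved by less than the typical standard error, while nucleotide supply went from -1.11 to -0.97. Of 54 single genes 43 moved by less than their standard error, 11 by more, and no called gene changed sign. Inputs for pairs, an alternative chosen after seeing the data, gave -0.67 for POLD1 minus POLD2, whose interval then held 0, and 0.41 for TYMS minus TK1, whose interval then left out 0. The sign turned for POLA1 minus POLA2 (0.29 to -0.16) and CDC6 minus CDT1 (0.15 to -0.13), whose intervals held 0 in both, and RRM2 minus RRM2B went from -3.35 to -2.69. Called m6A regions went from 7 (4 lower, 3 higher) to 6 (3 lower) when scaled to totals or centred on all regions, each time without RFC1, to 3 (1 lower) at an FDR under 0.01, to 3 (0 higher) among regions enriched in control, and to 0 (0 lower, 0 higher) when the statistic was widened by its spread over all regions, 1.53. The share of promoters with an E2F match went from 43.8% to 29.2% in the 250 bases before the start, beside 4.24% of genes with an adjusted p and 2.79% of all promoters; with any listed start, chosen after seeing the data, the 3 shares were 50%, 6.21% and 3.99%. No paired analysis was possible because the tables hold no values per library, and leaving out a library was not possible for the same reason. Depth limits the expression value of POLE2, and the summed inputs of CDC7, POLD2, POLA2 and DNA2. Only 84 of the 173 m6A regions had an FDR. For the m6A counts under the alternatives, the share over all regions was not counted.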
